A study of Homo sapiens with 16 samples.

Results

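The regions described here are stretches of open chromatin that had a peak in both groups of U87 glioblastoma cells without AsiDNA and in neither group with it. Peaks of the 4 deposited lists on chromosomes 1 to 22 and X were merged wherever they overlapped by at least 1 bp, which gave 183659 regions. A region was a member when it held a peak of the vehicle list and of the belinostat list and no peak of the AsiDNA or the combination list. This left 1634 members, 0.890% of all regions. They were selected on the presence and absence of called peaks, so their pattern across the 4 lists is the rule and not a finding, and "closed" means only that no peak was called.

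U87 is an established human glioblastoma line, and the series asks whether AsiDNA and belinostat change chromatin accessibility across the genome. The 16 libraries form 4 groups of 4, namely vehicle (Control_DMSO), belinostat alone (Control_Bel), AsiDNA alone (Asi_DMSO) and both drugs (Asi_Bel). The belinostat groups received 1 µM for 24 h. No AsiDNA dose is given in the labels, and their protocols name cells called MTU87 and LTAU87 without saying what these are, so the sources used here do not settle how those groups met AsiDNA. One peak list stands for the 4 libraries of each group. No spread between replicates can therefore be given and no test was run. Intervals are 95% intervals (Wilson for shares, order statistics for medians) that cover counting error only. Read depth is unknown.

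AsiDNA is a short double-stranded DNA that resembles a broken chromosome end and draws repair enzymes such as DNA-PK and PARP away from true breaks. Belinostat is a hydroxamate that blocks histone deacetylases, enzymes that remove acetyl groups from histones. In NicE-seq the nicking enzyme Nt.CviPII cuts 1 strand of accessible DNA in fixed nuclei, DNA polymerase I fills in biotinylated nucleotides from the nick, and the labelled fragments are captured and sequenced. Peaks at gene starts usually mark promoters, and peaks far from genes often mark enhancers or other regulatory elements.

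List lengths ran from 130318 peaks (vehicle) to 138937 (belinostat), with 138273 in the AsiDNA list and 134865 in the combination list. Of the glioma and mesenchymal marker genes checked, 9 of 10 had a peak within 1000 bp of a gene end in every list (THY1 had none), against 3 of 5 neuronal and 1 of 4 oligodendrocyte markers in every list and 2 or 3 of 5 epithelial markers. Of the blood cell genes, CD3E and SPI1 had such a peak in every list. PTPRC and HBB, also genes of blood cells, EPCAM and CDH1 of the epithelial list and MBP, MOG and MAG of the oligodendrocyte list had no such peak in any list.

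Among the 34961 promoter windows of RefSeq (250 bases before the gene's start, GRCh38.p14), members touched 36, or 0.103%, counting windows whose first bases after the start were touched. The 6 printed here belong to protein-coding genes, had at least 100 of the 250 bases inside a member, and had the strongest member peaks among such genes. They are examples picked by strength and do not stand for all 36. Each reads 5′ to 3′ towards the gene, and the capitals mark the bases inside the member.
PCDH15, chr10:54801232-54801481, minus strand: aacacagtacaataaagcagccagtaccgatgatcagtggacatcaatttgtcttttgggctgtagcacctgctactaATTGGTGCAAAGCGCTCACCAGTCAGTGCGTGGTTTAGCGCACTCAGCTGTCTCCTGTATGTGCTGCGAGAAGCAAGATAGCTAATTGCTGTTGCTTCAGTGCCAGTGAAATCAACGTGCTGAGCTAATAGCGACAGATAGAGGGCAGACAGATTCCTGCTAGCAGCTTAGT
ACP5, chr19:11577646-11577895, minus strand: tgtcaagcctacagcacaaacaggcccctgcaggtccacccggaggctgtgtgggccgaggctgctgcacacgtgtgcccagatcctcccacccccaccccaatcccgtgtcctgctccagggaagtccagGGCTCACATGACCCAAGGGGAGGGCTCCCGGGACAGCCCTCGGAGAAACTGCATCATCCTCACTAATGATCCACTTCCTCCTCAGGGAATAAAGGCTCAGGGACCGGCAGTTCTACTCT
SIGLEC6, chr19:51531671-51531920, minus strand: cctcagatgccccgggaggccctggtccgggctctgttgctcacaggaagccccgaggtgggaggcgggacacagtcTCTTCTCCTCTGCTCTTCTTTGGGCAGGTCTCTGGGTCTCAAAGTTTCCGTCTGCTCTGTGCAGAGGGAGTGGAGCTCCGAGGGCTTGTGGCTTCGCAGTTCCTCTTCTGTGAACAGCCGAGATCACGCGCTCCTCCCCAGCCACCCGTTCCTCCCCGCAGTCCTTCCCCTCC
CDH12, chr5:22853345-22853594, minus strand: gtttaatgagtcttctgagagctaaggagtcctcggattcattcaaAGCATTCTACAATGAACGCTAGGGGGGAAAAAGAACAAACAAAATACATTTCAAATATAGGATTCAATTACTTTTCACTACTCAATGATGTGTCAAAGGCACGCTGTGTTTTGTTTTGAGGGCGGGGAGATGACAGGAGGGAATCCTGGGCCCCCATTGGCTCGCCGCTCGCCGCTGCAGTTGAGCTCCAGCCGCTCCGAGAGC
SULT1C2, chr2:108288645-108288894, plus strand: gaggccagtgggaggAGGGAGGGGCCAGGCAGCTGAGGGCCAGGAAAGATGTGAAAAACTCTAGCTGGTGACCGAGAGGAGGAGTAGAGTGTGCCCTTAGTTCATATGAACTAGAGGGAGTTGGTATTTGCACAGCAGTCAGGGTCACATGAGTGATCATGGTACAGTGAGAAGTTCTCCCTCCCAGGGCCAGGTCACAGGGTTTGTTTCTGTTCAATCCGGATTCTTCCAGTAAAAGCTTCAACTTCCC
NAP1L2, chrX:73214852-73215101, minus strand: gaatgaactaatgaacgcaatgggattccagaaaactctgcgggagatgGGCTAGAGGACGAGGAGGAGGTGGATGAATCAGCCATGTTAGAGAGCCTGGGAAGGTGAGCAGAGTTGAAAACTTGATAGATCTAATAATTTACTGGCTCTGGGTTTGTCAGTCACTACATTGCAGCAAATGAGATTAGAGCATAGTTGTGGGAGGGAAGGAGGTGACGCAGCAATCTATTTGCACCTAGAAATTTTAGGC

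These genes have unlike roles. PCDH15 encodes a protocadherin of hair-cell tip links, ACP5 the tartrate-resistant acid phosphatase of osteoclasts, and SIGLEC6 a sialic acid-binding receptor. CDH12 encodes a neuronal cadherin, SULT1C2 a cytosolic sulfotransferase and NAP1L2 a nucleosome assembly protein. The member at PCDH15 covered 172 of the 250 bases, with a fold enrichment of 5.20 in the vehicle list and 5.33 in the belinostat list, and the nearest peak of an AsiDNA list lay 2748 bp away. At CDH12 it covered 204 bases, the folds were 4.02 and 5.10, and the nearest AsiDNA-list peak was 257 kb away. At SIGLEC6 the folds were 4.69 and 4.17 and an AsiDNA-list peak lay only 169 bp outside. ACP5 (5.01 and 4.47), SULT1C2 (4.02 and 3.94) and NAP1L2 (5.68 and 3.71) had their nearest such peak at 3134, 8264 and 302 bp.

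The printed promoters had from 2 (SULT1C2) to 12 (SIGLEC6) CpG pairs in 250 bases. The 29 promoters whose start lay inside a member had a median of 5 CpG pairs and a median GC content of 54.4% (interval 48.0 to 61.6). The 15390 promoters with a region of all 4 lists at the start had 21 CpG pairs and 65.2% GC, and all 34961 promoters had 11 and 58.4%. Promoters with a region of the AsiDNA and combination lists alone (51) had 12 CpG pairs and 62.0% GC (54.0 to 71.6). For the vehicle and combination lists alone (26) the values were 7 and 54.4%, and for the single-drug lists alone (42) 8 and 53.8%. They were 10.5 and 59.4% for the vehicle and AsiDNA lists alone (150). For the belinostat and combination lists alone (145) they were 4 and 53.2%.

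Motifs were searched on both strands of these windows. The GC box bound by SP and KLF factors, GGGCGG, occurred in 9 of the 29 member promoters (31.0%, interval 17.3 to 49.2), in 42.7% of all promoters and in 66.0% of those with a region of all 4 lists. The ETS letters CCGGAA occurred in 1 of 29 (3.45%, 0.611 to 17.2), in 14.5% of all promoters and in 24.9% of those open in all 4 lists. GGGCGG occurred in 34.6, 33.3 and 29.0% of promoters of the vehicle and combination, single-drug, and belinostat and combination lists alone. CCGGAA occurred there in 3.85, 7.14 and 6.21%. For the AsiDNA and combination lists alone the shares were 56.9 and 21.6%, and for the vehicle and AsiDNA lists alone 46.7 and 10.7%. The E-box CANNTG occurred in 18 of 29 (62.1%) and in 61.8% of all promoters. The AP-1 letters TGANTCA were found in 2 of 29 (6.90%) against 6.54% of all promoters, and 1 of the 2 was in NAP1L2, inside the member. The TEAD letters GGAATG (5 of 29 against 11.9% of all), the RUNX letters TGTGGT (3 against 3837 of the 34961), the SOX and TCF letters ACAAAG (4 against 13.7%) and the CTCF core (1 against 8.92%) completed the search. GGAATG and CCGGAA can share the bases GGAA. A match is only a run of letters, and with 29 windows each share has a wide interval.

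Members also lay near a few microRNA genes. Of 1558 RefSeq hairpins, 5 (0.321%) had a member within 1000 bp: let-7a-1, let-7f-1, MIR623, MIR770 and MIR6511A1. The pair of let-7 hairpins is printed because 1 member adjoined both; the mature microRNAs share the seed, bases 2 to 8, in capitals.
hsa-let-7a-5p, chr9:94175962-94175983, plus strand: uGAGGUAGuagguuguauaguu
hsa-let-7f-5p, chr9:94176353-94176374, plus strand: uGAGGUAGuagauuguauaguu

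Let-7 microRNAs repress growth genes, among them members of the RAS family and HMGA2. The member at chr9:94176730-94176977 lay 297 bp downstream of the let-7f-1 hairpin and 694 bp downstream of let-7a-1. Its fold enrichment was 3.35 in the vehicle list and 3.71 in the belinostat list, and the nearest AsiDNA-list peak was 9443 bp away. MIR770, in the imprinted MEG3 region, had the strongest of these members, with folds of 4.32 and 4.60.

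The members were weak peaks. Fold enrichment, the authors' ratio of signal over local background, ranged from 1.19 to 8.99 in the vehicle list with a median of 3.66 (quartiles 3.13 and 4.26), and from 1.43 to 9.50 in the belinostat list with a median of 3.71 (3.25 and 4.40). The medians of all peaks were 5.75 and 6.09. Expressed as a percentile of the peaks of the same list, the median member stood at 16.1 in the vehicle list and 16.4 in the belinostat list. The percentile was higher in the belinostat list for 832 members, 50.9% (48.5 to 53.3). A −log10 q of 5 or more was reached in both lists by 571 members (34.9%), percentile 25 by 254 (15.5%) and percentile 50 by 7.

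**Figure D1:**
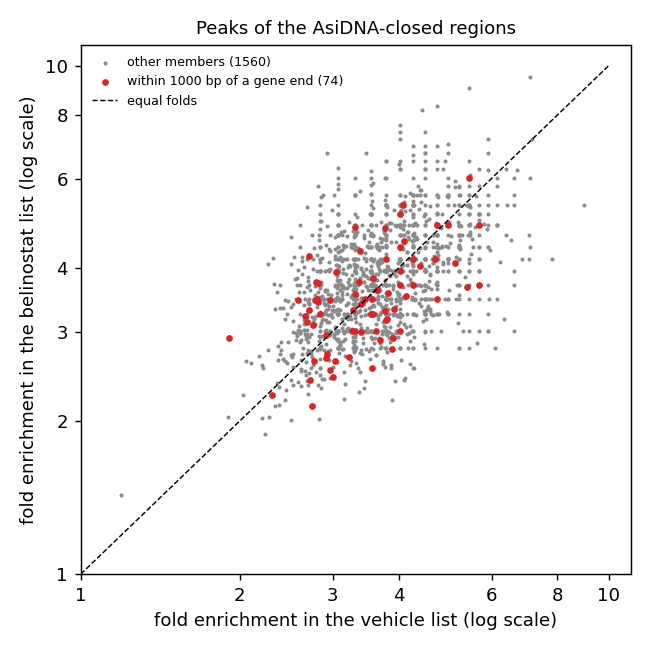
Each point is 1 of the 1634 members, with its fold enrichment in the vehicle list (x axis) and in the belinostat list (y axis), both on log scales; the 74 members within 1000 bp of a protein-coding gene end are in red and the dashed line marks equal folds. The cloud lies on both sides of the line, and the highest values are 8.99 in the vehicle list and 9.50 in the belinostat list.

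The share of regions missing from both AsiDNA lists fell with peak strength. Of the 103939 regions held by the vehicle and belinostat lists, 1634 (1.57%) were missing from both AsiDNA lists. In the weakest bin (the lower of the 2 peaks at percentile 10 or below) this was 740 of 8296 regions, 8.92% (8.33 to 9.55). It was 4.83% between percentiles 10 and 20, 2.49% up to 30, 0.959% up to 40 and 0.343% up to 50. Above percentile 70 it was 0 of 11147, 0 of 10395 and 0 of 8223 regions in the 3 strongest bins, which allow shares of up to 0.0269, 0.0289 and 0.0365% by a limit of 3 counts (Wilson upper bounds 0.0344, 0.0369 and 0.0467%). The reverse pattern, held by the AsiDNA and combination lists and missing from the other pair, ran from 10.6% in the weakest bin to 0.00846% between percentiles 60 and 70. Regions of the vehicle and combination lists alone, which match neither drug, fell from 8.06% in the weakest bin to 0.0263% between percentiles 50 and 60. The part of peak strength in the membership was not tested beyond these shares.

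**Figure D2:**
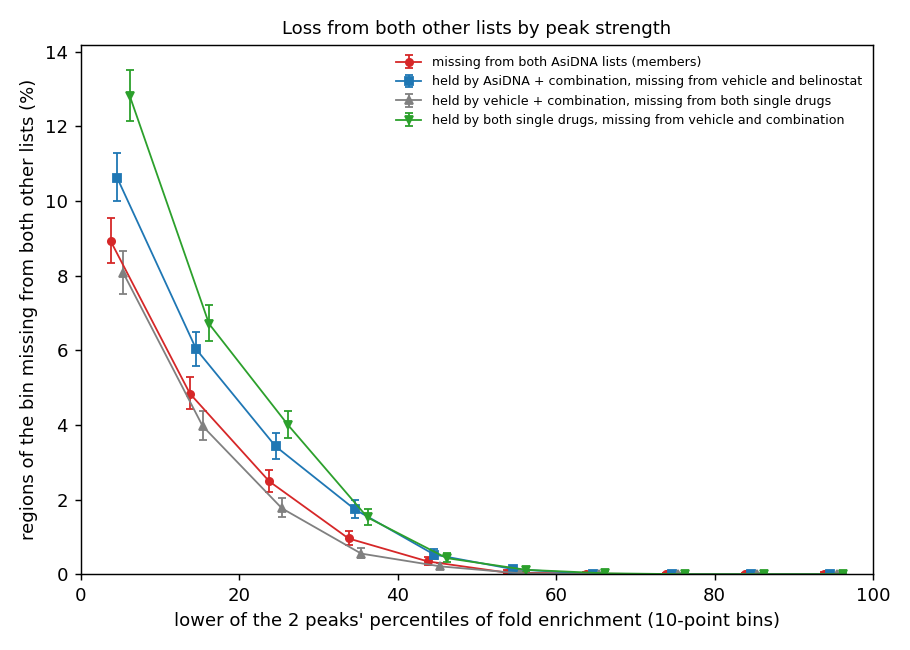
The y axis gives the percentage of regions held by a pair of lists that were missing from both other lists, and the x axis the lower of the 2 peaks' percentiles of fold enrichment in bins of 10; bars are Wilson 95% intervals. All 4 pairings fall from 8.06 to 12.8% in the weakest bin to 0 above percentile 70, and the members (red) start at 8.92%.

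Members were one of several small classes of this kind. There were 1634 members, 2260 regions held by the AsiDNA and combination lists alone, 1354 held by the vehicle and combination lists alone and 2550 held by the 2 single-drug lists alone. Patterns that followed belinostat were larger: 9257 regions were held by the vehicle and AsiDNA lists alone and 11179 by the belinostat and combination lists alone. The ratio of members to vehicle-and-combination regions was 1.21 (1.12 to 1.30). With lists cut to equal length it was 1598 to 1599, a ratio of 0.999 (0.932 to 1.07), so the side of 1 on which the ratio fell depended on list length.

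Members were a small part of the regions that lacked a peak with AsiDNA on either background. The vehicle list held 128088 regions, of which 15532 (12.1%) had no AsiDNA peak, and members made up 10.5% of these. The belinostat list held 136734, of which 20657 (15.1%) had no combination peak, and members made up 7.91% of these. Both counts include regions that the other list without AsiDNA did not hold, which could not be members. Within the 103939 regions of both lists, 3843 were missing from the AsiDNA list alone and 4130 from the combination list alone. A region missing from the AsiDNA list was also missing from the combination list in 29.8% of cases, and a region kept in the AsiDNA list was missing from the combination list in 4.19%. The same conditional share was 25.2% for the reverse pattern, 21.9% for regions of the vehicle and combination lists and 27.5% for regions of the single-drug lists.

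Members were narrow and simple. Their width ran from 198 to 1251 bp with a median of 330 (321 to 336), against 587 for regions of all 4 lists and 318 for regions of the vehicle and combination lists alone, and together they covered 591 kb. All but 1 consisted of 1 vehicle peak and 1 belinostat peak. The summits of the pair lay a median of 44 bp apart, within 50 bp in 889 members (54.4%), and the peaks shared a median of 66.2% of their joint span. Across members the log2 folds of the pair correlated at r = 0.47 (n = 1634, regions from the same 2 lists, a description only), and r was 0.72 or 0.73 in the 2 classes that followed belinostat and 0.44 in the vehicle-and-combination class.

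The distance to the nearest peak of an AsiDNA list ranged from 10 bp to 489399 bp, with a median of 4117 bp (3728 to 4578) and quartiles of 1319 and 9575 bp. Such a peak lay within 500 bp of 166 members, within 1000 bp of 324 (19.8%) and within 10000 bp of 1243 (76.1%). Only 28 members were more than 100 kb from one. Regions of the vehicle and combination lists alone lay a median of 2911 bp (2583 to 3222) from the nearest peak of the lists that lacked them. The same median was 3978 bp in the reverse pattern and 4261 bp for the single-drug lists alone. It was 3825 bp for the vehicle and AsiDNA lists alone and 3362 bp for the belinostat and combination lists alone.

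The edge of the rule was narrow. The members closest to an AsiDNA-list peak were a region in LPP (10 bp away, folds 3.10 and 3.79), 1 near SDC1 (37 bp, 3.63 and 4.87), 1 in HOMER2 (42 bp, 3.74 and 3.71), 1 near UBE2V2 (53 bp, 2.53 and 2.36) and 1 in PRR5L (54 bp, 4.37 and 4.03). Just outside it were a region in TBL1X that met a combination peak of fold 2.87 over 17 bp and a region near NFIC that met an AsiDNA peak of fold 2.46 over 20 bp. Regions near OR4C12 (37 bp), in CEP95 (41 bp) and near AGAP1 (45 bp) missed it by overlaps with AsiDNA peaks of folds 2.57, 3.27 and 2.96. LPP encodes a focal adhesion protein and SDC1 the heparan sulfate proteoglycan syndecan-1.

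The strongest members, ranked by the lower of their 2 percentiles, lay mostly far from gene ends. The first, chr6:95087428-95087768, lay 490 kb from MANEA, an endomannosidase gene, with folds of 7.09 and 9.50, and its nearest AsiDNA-list peak was 489 kb away. The nearest region, 7.18 kb away, had no AsiDNA-list peak either. The second lay inside CRHR2, which encodes a receptor for corticotropin-releasing hormone and urocortins, with folds of 7.16 and 7.19 and an AsiDNA-list peak 12.2 kb away. Members near BANF2 (5.91 and 6.72), OR5K1 (5.91 and 7.19), FAM133A (6.38 and 6.26), TIAM1 (6.70 and 6.24) and NCAM2 (6.15 and 6.03) lay between genes. Those in TSC22D3 (5.91 and 6.24), HHAT (6.62 and 6.03) and ESRRG (7.09 and 6.03) lay in gene bodies. TIAM1 is an activator of the GTPase RAC1, TSC22D3 a glucocorticoid-induced leucine zipper protein, HHAT the acyltransferase that palmitoylates Hedgehog ligands, and ESRRG an orphan nuclear receptor. For ESRRG the nearest AsiDNA-list peak was 97.1 kb away, for TSC22D3 only 1.35 kb.

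The most isolated members had no region of any list around them. One between genes, nearest GRIK2, a kainate receptor gene, lay 483 kb from the next region and had folds of 5.44 and 5.10. The next were near LOC100996696 on chromosome 12 (313 kb; 4.26 and 4.40), near CENPC, a centromere protein gene (291 kb; 3.78 and 3.48), and near IMMP2L, a mitochondrial peptidase gene (282 kb; 4.97 and 6.03). The fifth was the member at the CDH12 start printed above, 256 kb from any other region. At this promoter both lists without AsiDNA had a lone peak.

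Most members lay away from gene ends. In all, 74 members (4.53%, 3.62 to 5.65) had their summit within 1000 bp of a protein-coding gene's start or far end, 660 (40.4%, 38.0 to 42.8) lay in gene bodies and 900 (55.1%, 52.7 to 57.5) lay between genes. Regions of all 4 lists were at gene ends in 12.6% of cases, and the 5 other classes compared ranged from 3.18 to 4.40%. In gene bodies lay 43.3% of regions of all 4 lists, 47.6% of those lost with belinostat on both backgrounds and 38.0% (35.5 to 40.7) of vehicle-and-combination regions. The median distance to a gene end was 41.0 kb (36.1 to 46.0), against 40.9 kb in the reverse pattern, 49.1 kb in the vehicle-and-combination class and 24.8 kb in all 4 lists. The 1 Mb around a member held a mean of 8.37 protein-coding genes (SE 0.225), against 10.0 around regions of all 4 lists and 7.27 in the vehicle-and-combination class. A start of any RefSeq gene with a promoter entry lay within 1000 bp of 77 members (4.71%). The same share was 12.7% for regions of all 4 lists and 4.42% in the reverse pattern. In the remaining classes it ran from 2.91% (belinostat and combination lists alone) to 4.28% (vehicle and AsiDNA lists alone).

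**Figure D3:**
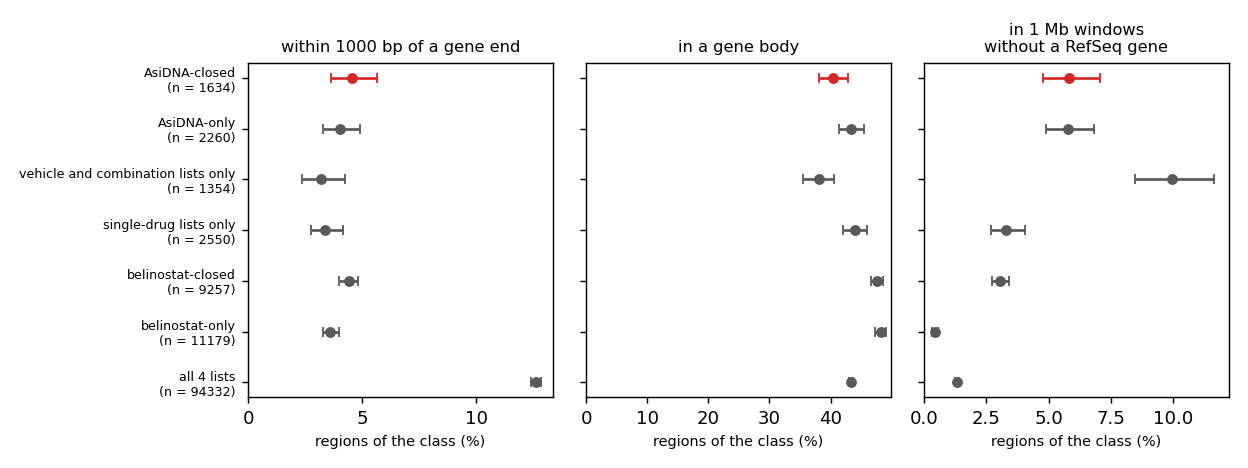
The 3 panels give the percentage of each class of regions (rows, with n) that lay within 1000 bp of a protein-coding gene end, in a gene body, or in 1 Mb windows without a RefSeq gene; bars are Wilson 95% intervals and members are in red. Members were at gene ends in 4.53% of cases against 12.6% for regions of all 4 lists, and in windows without a gene in 5.81% against 1.32%.

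The 74 members at gene ends touched 78 of 19974 protein-coding genes (0.391%). The nearest end was the start for 35 genes and the far end for 21, and 22 had no start in the promoter table. The ends are those of the whole gene, so a promoter-table start inside that span, as at PCDH15 and ACP5, is not counted here. By strength the first was DEFB132, a beta-defensin, with folds of 5.44 and 6.03 at 898 bp from its far end. OR5P3, an olfactory receptor (5.68 and 4.87), and VIP, which encodes vasoactive intestinal peptide (4.97 and 4.87, 124 bp from the start), followed with LOC107987432 (4.73 and 4.87). TPH2, the neuronal tryptophan hydroxylase of serotonin synthesis, had a member 15 bp from its start with folds of 3.78 and 4.17. ZBTB7C, a zinc finger factor, had 1 at 43 bp (3.78 and 4.80), FABP5, a fatty acid-binding protein gene, 1 at 810 bp from an end (4.09 and 4.52), and PRPF40B, a splicing factor gene, 1 at 63 bp from its far end (4.07 and 5.33). USP17L15, STUM, SMIM36 and CCDC194 completed the 15 strongest together with SIGLEC6, CDH12 and SULT1C2, and their folds lay between 3.94 and 5.12.

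The gene-end group held genes of unlike tissues, and none passed percentile 50 of either list. The strongest, DEFB132, stood at percentile 45.6 of the vehicle list and 49.2 of the belinostat list. SIGLEC6 stood at 33.8 and 24.1, and TPH2 at 18.3 and 24.1. HES4, a Notch-responsive repressor, had a member 124 bp from its start with folds of 3.57 and 3.82 and an AsiDNA-list peak 305 bp away. At IRS1, the insulin receptor substrate, the member lay 641 bp from the far end of the gene (4.26 and 3.71).

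Members inside genes were spread over many hosts. Of 19974 protein-coding genes, 654 (3.27%) held a member between their ends: 598 held 1, 52 held 2, 3 held 3 and 1 held 4. PRKG1, the cGMP-dependent protein kinase gene of 1307 kb, held 4 of its 172 regions. Their folds were 3.78 and 3.01, 2.58 and 2.39, 2.70 and 2.86, and 2.92 and 3.25. All 4 were below percentile 6 in at least 1 list. TTC34 held 3 of 33 regions, with folds of 2.71 and 3.48, 2.57 and 2.94, and 3.69 and 2.84, and the nearest AsiDNA-list peaks lay 731, 1504 and 1358 bp from them.

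PHACTR3, which encodes a phosphatase and actin regulator of the nervous system, held 3 members among 15 regions (20.0%). Their folds were 4.50 and 4.38, 4.29 and 3.46, and 4.21 and 3.08, with the nearest AsiDNA-list peak at 8298, 1536 and 20144 bp. CADPS2, an activator of dense-core vesicle release, held 3 of 48, with folds of 4.02 and 4.82, 4.06 and 4.64, and 2.70 and 3.29. Of the genes with 2 members, those with the most per length were TCEA3 (2 of 8 regions), POC1A (2 of 14), PTPRU (2 of 19), SYT17 (2 of 9), PPP1R13B (2 of 12) and GNG12 (2 of 28). The stronger member of SYT17, a synaptotagmin gene, had folds of 5.82 and 4.87 and lay 19193 bp from an AsiDNA-list peak.

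Host genes were long. Their median length was 133 kb, against 24.2 kb for all protein-coding genes and 38.4 kb for those with any region in the body. Genes over 300 kb held a member in 177 of 771 cases, genes of 30 kb or less in 78 of 11149. Counted over the regions inside them, members were 1.00% in genes over 300 kb, 0.752% in genes of 100 to 300 kb, 0.750% in genes of 30 to 100 kb and 0.658% in genes of 30 kb or less. Per region the shares were thus closer together than per gene.

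Another member lay within 100 kb of 276 of them (16.9%, 15.2 to 18.8), and the median distance to the next was 449 kb. The share was 21.2% in the reverse pattern (2260 regions), 21.0% in the vehicle-and-combination class (1354) and 24.3% in the single-drug class (2550), classes that also differ in size. Of 2829 windows of 1 Mb with a region, 1708 held no member, 771 held 1, 247 held 2, 81 held 3 and 11 held 4. A further 4 windows held 5, 2 held 6, 1 held 7, 2 held 8, 1 held 9 and 1 held 18.

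Stretches between neighbouring AsiDNA-list peaks mostly held a single member: 1581 held 1, 25 held 2 and 1 held 3. In the reverse pattern the counts were 2191, 33 and 1. The stretch with most vehicle peaks and no AsiDNA peak was chr1:103107286-103513732, which is 406 kb long and runs from the start of COL11A1 towards RNPC3. COL11A1 encodes a chain of the fibrillar collagen type XI, and RNPC3 a protein of the minor spliceosome, next to the amylase genes. Within it the vehicle list had 9 peaks with folds from 3.31 to 8.41, the belinostat list 12 with folds from 3.29 to 13.2, the AsiDNA list 0 and the combination list 3 with folds from 3.69 to 10.7. The next longest such run had 6 vehicle peaks, and 14 stretches had 5 or more. In the opposite direction the maximum was 10 AsiDNA peaks without a vehicle peak, on chromosome 10, and 37 stretches had 5 or more.

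This stretch held 5 members, among the 20 regions of its 1 Mb window. The first, chr1:103107697-103108153, lay at the COL11A1 start, with folds of 3.77 in the vehicle list and 3.29 in the belinostat list. The others had folds of 4.02 and 5.33, 4.73 and 5.13, 5.20 and 5.78, and 3.31 and 4.17. The stretch also held 3 regions that the vehicle, belinostat and combination lists held and the AsiDNA list did not. Of these, 2 lay between members, with combination folds of 3.69 and 4.39, and 1 lay beyond the last member, with 10.7. The regions that bounded the stretch on both sides were held by all 4 lists, and farther out some were not. All 4 lists also held the region at RNPC3, 155 kb beyond the third member, with folds from 9.002 in the AsiDNA list to 11.5 in the belinostat list. The last 3 members followed each other with no peak of either AsiDNA list between them, and they are the single run of 3 counted above.

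**Figure D4:**
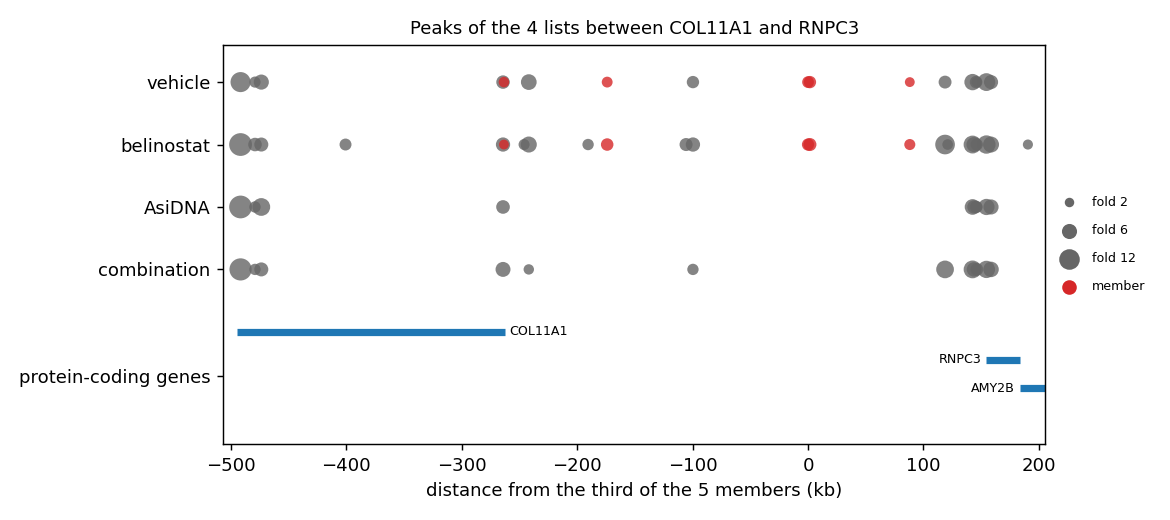
Dots mark the regions around the 5 members in which each list (rows) held a peak, placed by distance in kb from the third member, with dot area in proportion to fold enrichment; members are red, other regions grey, and blue bars are protein-coding genes. Between COL11A1 and RNPC3 the AsiDNA row is empty over 406 kb, while the combination row holds 3 peaks; the regions that bound the stretch are held by all 4 lists.

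The 44 windows without any RefSeq gene, among them windows within centromere models, held 95 members (5.81%, 4.78 to 7.06). The share was 1.32% for regions of all 4 lists, 5.80% for the reverse pattern and 9.97% (8.49 to 11.7) for the vehicle-and-combination class. Members made up 2.30% of the 4128 regions of these windows. They were weaker than the rest, with a median lower percentile of 5.45 against 11.2, wider (394 against 326 bp) and closer to an AsiDNA-list peak (1834 against 4374 bp). Of the 95, 76 lay in 14 windows with more than 100 regions each; the median window held 64. Over all windows, with or without genes, the 5 with most members were chromosome 13 from 17 to 18 Mb (18 of 382 regions) and from 16 to 17 Mb (9 of 243), chromosome 15 from 19 to 20 Mb (8 of 117), chromosome 9 from 43 to 44 Mb (8 of 229) and chromosome 1 from 123 to 124 Mb (7 of 464). The same windows held 14, 14, 3, 16 and 2 regions of the reverse pattern. The part of repeated sequence in these windows was not tested.

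By chromosome the share of regions that were members ran from 0.648% on X (0.442 to 0.947) to 1.34% on chromosome 21 (0.955 to 1.87). Chromosome 13 stood at 1.24% (0.980 to 1.56), and at 0.849% (0.629 to 1.15) without its windows that hold no gene. Chromosome 20 stood at 1.14% (0.895 to 1.45) and at 1.07% without such windows, and chromosome 3 at 0.718% (0.586 to 0.880). Chromosome 21 had 33 members and 30 regions of the reverse pattern; on every other chromosome the reverse pattern had more regions.

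**Figure D5:**
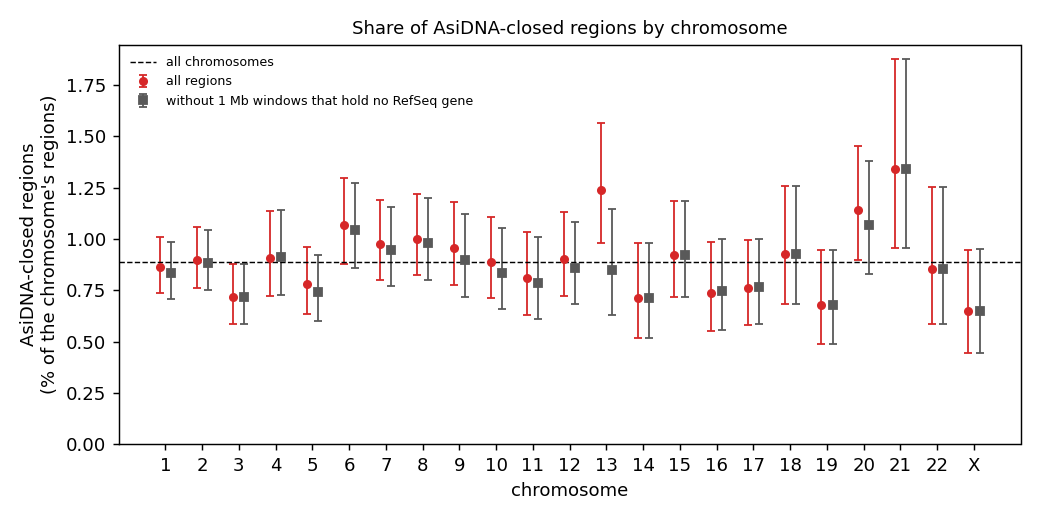
The y axis gives members as a percentage of the merged regions of each chromosome (x axis), over all regions (red) and without 1 Mb windows that hold no RefSeq gene (grey); bars are Wilson 95% intervals and the dashed line is the share over all chromosomes, 0.890%. Chromosome 13 drops from 1.24 to 0.849% without those windows, and chromosome 21 keeps 1.34%.

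Gene groups were described by the members in the gene or within 10 kb of it. Over all 19974 protein-coding genes, 939 (4.70%) had one, and members were 887 of the 112174 regions so placed (0.791%). These counts are not adjusted for gene length, which differed widely between groups. In the repair pathways that AsiDNA engages, 2 of 14 end-joining genes had a member, 2 of 116 regions (1.72%, 0.474 to 6.07). It lay in NHEJ1, which encodes the ligation factor XLF (folds 4.21 and 5.61), and in APLF, a PARP-dependent end-joining factor (3.31 and 3.94). None of 22 resection and recombination genes (0 of 213 regions, which allows up to 1.41% by a limit of 3 counts, with a Wilson upper bound of 1.77%), 17 damage-signalling genes or 17 PARP and single-strand break repair genes (0 of 85 regions each, up to 3.53%, Wilson upper bound 4.32%) had one. Among 18 histone deacetylases and sirtuins, the enzymes belinostat acts on or their relatives, only HDAC10 had one (3.30 and 3.55), with an AsiDNA-list peak 490 bp away. That member lay outside the HDAC10 body and 564 bp from the far end of MAPK12. It was 1 of the 179 regions of that gene list (0.559%).

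Of 31 long genes of common fragile sites, which break under replication stress, 10 had a member, 11 of 1061 regions (1.04%, 0.580 to 1.85). DAB1, a reelin adaptor, had 2 (3.78 and 3.71, and 2.84 and 2.65), and NBEA (5.68 and 4.64), LRP1B (4.49 and 4.40) and FHIT (3.55 and 4.64) had 1 each. The median length of these genes was 1370 kb. Of 25 receptor tyrosine kinase genes of glioma, 7 had a member (8 of 383 regions, 2.09%, 1.06 to 4.07), among them ALK with 2 (4.49 and 5.56, and 3.93 and 3.90), ROS1, FGFR2 and NTRK2.

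Among adhesion genes, classical cadherins had members at 6 of 22 genes, 10 of 420 regions (2.38%, 1.30 to 4.33). CDH12 had 3 among its 10 regions, the start member and 2 in the body with folds of 3.55 and 4.64 and of 3.07 and 4.40. CDH4 had 2 of 30, CDH13 2 of 120 and CDH18 1 of 37. The non-clustered protocadherins had 1 of 12 (1 of 104 regions, 0.962%), the PCDH15 member whose promoter is printed above. Synaptic and neural adhesion genes had 6 of 47 (6 of 769 regions, 0.780%), with members in PTPRD, DSCAML1, TENM2 and NLGN1. Integrins and laminins had 2 of 30 (4 of 496 regions, 0.806%), LAMA3 and ITGA9, each with 2 members. Collagens had 8 of 33 (8 of 534 regions, 1.50%, 0.761 to 2.93). Among them were COL24A1 (4.49 and 4.64, 141518 bp from an AsiDNA-list peak), COL4A2, COL12A1 and COL27A1.

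Axon guidance genes had members at 9 of 43, 14 of 893 regions (1.57%, 0.936 to 2.61). SLIT2, a ligand, had 2 of its 9 regions, with folds of 5.44 and 4.87 and of 3.07 and 3.25. Its receptor ROBO1 had 2 of 83 (3.55 and 4.64, and 6.15 and 3.48), and the semaphorins SEMA3A and SEMA5A had 2 each, of 24 and 62 regions. Potassium channels had 8 of 33 (1.84% of regions), with KCNJ6 at 2 of 29 and KCNQ3, KCND3 and KCNQ5 at 1 each. Glutamate and GABA receptors had 5 of 39 (1.27%), among them GRM5 (5.68 and 3.94), GRIN2B, GABRG3 and GRIN2D. SOX and FOX factors had 3 of 38 (3 of 296 regions, 1.01%). These were FOXP1 (5.20 and 4.40), FOXP2 (4.02 and 3.94) and SOX13 (3.15 and 2.21).

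Gene clusters with few regions had few members. Beta-defensins had 1 of 39 genes, DEFB132 (1 of 56 regions, 1.79%). Olfactory receptors had 5 of 392, with 4 members among 266 regions (1.50%, 0.586 to 3.80). Near OR5K1 and OR5P3 the member was the only region of any list within 10 kb of the gene. The intervals of the shares of regions held the value over all genes, 0.791%, in each list except the receptor tyrosine kinases, the classical cadherins, the axon guidance genes and the potassium channels, whose lower bounds were 1.06, 1.30, 0.936 and 0.971%. These intervals treat regions as independent and are not adjusted for the 18 lists or for gene length. In the bodies of genes over 300 kb, members were 1.00% of regions. That value lies inside the intervals of the axon guidance genes and the potassium channels. The lists were chosen with earlier results known, so the comparison is a description and not a test.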

How the data were processed

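NicE-seq libraries of 16 U87 samples were grouped by their labels, 4 per group, and 1 deposited peak list stands for each group. Builds and tools come from the submitters' processing notes: hg38, with MACS2, Bowtie2, Trim Galore 0.5.0, deepTools, Picard and SAMtools. The sources used here do not give their roles, options or any input control. Per the labels' protocols, nuclei were fixed, nicked with Nt.CviPII and labelled with biotinylated nucleotides. In the deposited lists each peak carries a fold enrichment (a ratio over local background), a p-value and a q-value on the −log10 scale, and a score; these are the authors' values. They rank and filter peaks within a list, the fold as a percentile. Folds of both lists are printed side by side and set against each other over members, but they were not scaled between lists and no change in level is read from them. A list holds only peaks past the caller's threshold, and depth per library is unknown.

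Regions were merged from peaks overlapping by 1 bp and placed by the summit of their strongest peak. RefSeq genes (GRCh38.p14, the build of the files) gave 1 start and end per gene, and no exons or introns were used. A gene end is either the start or the far end, so shares at gene ends are not shares of promoters. A gene counted as host when the summit lay between its ends, so overlapping genes could share a member. No genome sequence was used, so sequence features come from RefSeq promoter windows and the planned ones over whole regions were not run.

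The members and gene lists were chosen with earlier results of these data known. Named were the 10 strongest members by lower percentile, the 10 genes with most members, the 15 strongest at gene ends, up to 4 genes per list, the 5 windows with most members, the 5 members nearest an AsiDNA-list peak, the 5 regions just outside the rule and the 5 most isolated members; the printed promoters, the microRNAs, HES4, IRS1 and the COL11A1 stretch were chosen after their values were seen. Merging and distances were tested on 20000 simulated sites, of which 100% were recovered. Python 3.11.15, numpy 2.4.6, pandas 2.3.3, scipy 1.17.1 and matplotlib 3.10.9 were used.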

Additional observations from a re-analysis of the deposited data

How the results depend on the processing

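Each of the 10 summary values was recomputed under 7 settings planned for all of them, under windows of 500 and 2000 bp or neighbour distances of 50 and 200 kb where these apply, and without the 1 Mb windows that hold no RefSeq gene, a setting chosen after seeing the data. Of 84 recomputed values, 43 stayed within the interval (or 1.5 times the count) of the value reported, 40 moved outside it and 1 turned its direction. No paired analysis was possible because each group has 1 peak list for all of its libraries. Leaving out a library was not possible for the same reason, and the limit set by read depth is unknown.

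With every list held to peaks of −log10 q at least 5, members numbered 1038, 10.5% had another within 100 kb, and 1 gene held 3 or more. Lists of equal length turned the ratio to the vehicle-and-combination regions to 0.999, with a median width of 339 bp, a median distance of 4801 bp to an AsiDNA-list peak and 2 genes with 3 or more. Requiring no AsiDNA-list peak within 500 bp gave 3.41% at gene ends and a distance of 4952 bp. Requiring both peaks at a −log10 q of 5 or more, with no AsiDNA-list peak of any strength, left 571 members, 44.1% in gene bodies, 4.20% with a neighbour, a width of 295 bp and 0 genes with 3 or more. Coverage of 50% of the region gave 18.9% with a neighbour, 356 bp, 1928 bp to an AsiDNA-list peak and 8 genes. Matching summits within 250 bp gave 8.64% at gene ends, 22.5% with a neighbour, 350 bp, 1944 bp and 8 genes. Keeping both peaks at or above percentile 25 left 254 members, a ratio of 1.38, 1.57% at gene ends, 44.9% in gene bodies, 51.9 kb to a gene end, 7.06 genes per Mb, 1.57% with a neighbour, 293 bp, 6230 bp and 0 genes.

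Without the windows that hold no gene, 42.9% lay in gene bodies, 35.7 kb from a gene end, with 8.89 genes per Mb and 14.2% with a neighbour. Windows of 500 and 2000 bp placed 2.45 and 7.41% at gene ends, and distances of 50 and 200 kb gave 9.55 and 29.0% with a neighbour. Narrower windows and distances can only lower these shares, and wider ones can only raise them. Requiring no AsiDNA-list peak within 500 bp can only raise the median distance to such a peak. Leaving out windows without a gene removes no member from a gene body, so it can only raise that share. Settings that keep a subset of the members can only lower the number of genes with 3 or more. With 50% coverage or matched summits a member could overlap an AsiDNA-list peak, which was counted as no distance. The cause of the other movements was not tested.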

Other observations

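Some members lay at genes without protein products. Of the 29 promoters whose start lay inside a member, 20 were protein-coding, and the rest belonged to long noncoding RNAs. The strongest of these were LOC101930091 on chromosome 15 (fold 4.40 in the vehicle list and 5.69 in the belinostat list) and LINC01792 on chromosome 2 (5.22 and 4.44); the member covered 220 and 250 of their 250 bases. Their nearest AsiDNA-list peaks lay 509 and 300 bp away, so open chromatin was called next to both starts in at least 1 AsiDNA list. LINC01836 and LOC101928450, which start near each other on opposite strands of chromosome 19, shared 1 member with folds of 2.69 and 2.96. Long noncoding RNA genes as a whole held 236 members in their bodies (14.4%, 12.8 to 16.2), against 15.7% of regions of all 4 lists.

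Among weak members at or near the starts of protein-coding genes were several for regulators. ETV1, an ETS factor, had folds of 3.45 and 2.40, L3MBTL3, a reader of methylated lysine, 3.38 and 2.50, and HOXA4, a homeobox factor, 2.93 and 2.71. The HOXA4 member covered 59 of the 250 bases but not the start, and its summit lay 458 bp from it. The cardiac actin gene ACTC1 had 2.32 and 3.72, and SEPTIN4, a cytoskeletal GTPase gene, 2.69 and 3.03. These stood below percentile 3 in at least 1 list and were named after their values were seen. OXGR1 and GIMAP6 also had start members below that percentile.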
